A study of Mus musculus with 11 samples.

Results

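The genes described here are 10 genes that neurobiology uses as markers of neurons, read in every one of 11 RNA sequencing libraries of mouse NSCs. The rule that selects them lists names and sets no threshold on a measured value. Each symbol was matched to 1 gene of the GENCODE mouse annotation, so 10 of the 53801 genes in the deposited tables were members. Tubb3, Map2, Dcx and Stmn2 encode proteins of microtubules, Gap43 a growth cone protein, Ncam1 a cell adhesion molecule, Snap25, Syt1 and Syn1 proteins of the presynaptic terminal, and Rbfox3 the nuclear splicing factor stained as NeuN.

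The cells were primary NSCs of the embryonic mouse hippocampus, cultured for 7 days in medium to which 4HBP (1 µM) or only its vehicle EtOH (control) was added. The deposited labels spell 4HBP out as 4-hydroxybenzoic acid, whereas the paper uses the abbreviation for 4-hydroxybenzophenone. Proliferation medium held EGF and bFGF at 20 ng/ml each and 1% B27, and differentiation medium held 2% B27 and neither growth factor, so the media differed in B27 as well. In proliferation medium 3 control and 3 4HBP libraries were made, and in differentiation medium 2 control and 3 4HBP libraries. The labels number the replicates but do not say whether they came from separate isolations, so the p-values measure the spread between these cultures, which may in part be technical.

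A neural stem cell that leaves the cell cycle and becomes a neuron first makes microtubule proteins that shape the migrating cell and its processes (Dcx, Tubb3, Stmn2), and then proteins of the growing axon (Gap43). Proteins of the vesicle release machinery (Snap25, Syt1, Syn1) and the nuclear protein NeuN are known as features of more mature neurons. Not all of these genes are restricted to neurons, since Ncam1 is also made by progenitors and glia. Cultures without EGF and bFGF are known to give neurons, astrocytes and oligodendrocyte lineage cells together, so the RNA of a culture is a mixture. In such bulk samples, fewer cells of a type and less RNA per cell cannot be told apart.

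Library totals were between 20822921 and 23438463 expected counts (the fragments that RSEM assigns to genes), and 3 counts, the floor used here, equal 0.128 to 0.144 CPM (counts scaled to library size), which covers counting error only. No pair of libraries agreed within sampling noise. In proliferation medium, replicate 3 with 4HBP stood apart, with a mean chi-square per gene of 25.6 and 23.0 against replicates 1 and 2, which differed from each other by 5.62. Where leaving it out ended or added a call or changed a count of calls given here, that is stated beside the result. Shifts of the log2 fold changes are given for some of the genes only. The mitochondrial share of counts moved with the medium (8.49% to 9.60% in proliferation against 5.76% to 6.24%), and its part in the differences between media was not tested. Of the markers of the other cell types, Aif1, Tmem119 (microglia), Cldn5 and Cdh5 (endothelium) were at or under 3 counts in all 11 libraries.

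The 10 genes covered a wide range of levels. Levels of different genes were compared in TPM (which corrects counts for transcript length and depth). In control cultures in proliferation medium, Map2 was the highest at 391 ± 35.6 TPM (mean ± SD, n = 3), followed by Gap43 at 118 ± 18.2 and Ncam1 at 104 ± 2.62 TPM, whose ranges overlapped. Tubb3 (38.1 ± 4.11), Dcx (22.5 ± 2.47) and Syn1 (10.9 ± 1.71 TPM) came next, each apart from its neighbours. The other 4 genes were low, with Snap25 at 2.87 ± 0.229, Syt1 at 1.94 ± 0.221, Stmn2 at 1.45 ± 0.377 and Rbfox3 at 0.953 ± 0.0115 TPM, and only Syt1 and Stmn2 overlapped among them. Map2 thus gave 56.6% of the summed TPM of the 10 genes in these cultures. It ranked above 98.8% of the genes with a TPM above 0, whereas Rbfox3 ranked above 40.5%.

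In control cultures in differentiation medium (n = 2), Map2 was still the highest at 351 ± 12.1 TPM and Rbfox3 the lowest at 1.80 ± 0.134 TPM. Ncam1 (264 ± 5.40 TPM) was next, and Gap43 (57.7 ± 1.29 TPM) stood below Tubb3 at 64.4 ± 3.80 TPM. Snap25 stood at 11.1 ± 1.38 TPM beside Syn1 at 11.2 ± 0.523 TPM, and their ranges overlapped. The 3 presynaptic genes, Stmn2 and Rbfox3 stayed at or under 12.8 TPM in every control library.

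**Figure D1:**
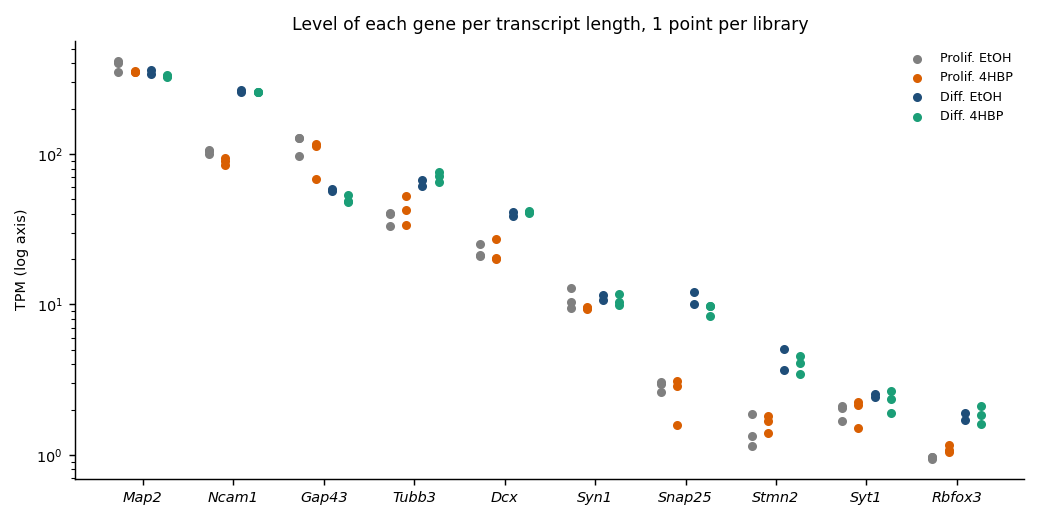
Level of the 10 genes in TPM (log axis), 1 point per library, coloured by group, with genes ordered by their mean. Map2 lies between 327 and 418 TPM in all 11 libraries, and Rbfox3 between 0.940 and 2.11 TPM.

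The first question was how these genes differed between the media after 7 days in control cultures (differentiation minus proliferation medium). Of the 10 genes, 5 rose (Snap25, Stmn2, Ncam1, Rbfox3 and Dcx), 3 fell (Gap43, Map2 and Syn1), and Tubb3 and Syt1 did not pass the test (edgeR quasi-likelihood test, Benjamini-Hochberg adjusted p under 0.05 over all genes). These 8 of 10 stand beside a background of 61.4% of the 15920 genes tested, with 30.8% higher and 30.6% lower, so most genes tested were called between these media. The median log2 fold change was 0.44 over the 10 genes and 0.03 over all genes. Without replicate 3 with 4HBP in proliferation medium, 9 of the 10 were called, 6 higher and 3 lower. In that fit 66.1% of all genes were called. Values of single libraries below are CPM after TMM normalization (normalized CPM).

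Of the microtubule genes, Dcx, whose protein binds microtubules in migrating young neurons, was at 131, 117 and 113 normalized CPM in control libraries in proliferation medium. It rose to 167 and 185 in those in differentiation medium. The groups did not overlap, and Dcx rose with a log2 fold change of 0.55 (SE 0.09, adjusted p = 0.000233). Stmn2, a tubulin-binding protein of growth cones, was at 1.90, 1.68 and 2.78 normalized CPM and rose to 4.58 and 4.00, a log2 fold change of 1.02 (SE 0.24, adjusted p = 0.00234). The change was larger than the spread between replicates, although Stmn2 was counted only 34 to 56 times in these proliferation libraries.

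Tubb3, the beta tubulin stained as a neuron marker, read 50.6, 43.5 and 53.5 normalized CPM in proliferation medium against 59.7 and 65.3 in differentiation medium. The groups did not overlap, but the log2 fold change of 0.34 (SE 0.16) did not pass the test (adjusted p = 0.0779). Its call depended on the libraries fitted. Without replicate 3 with 4HBP in proliferation medium, which enters through the normalization and the shared estimate of the spread, a log2 fold change of 0.34 had an adjusted p of 0.00645, and without replicate 2 of that group it was 0.35 with an adjusted p of 0.0349.

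Map2, a dendritic microtubule protein, moved the other way. It was at 839, 886 and 783 normalized CPM in proliferation medium against 660.4 and 673 in differentiation medium, and fell by 0.33 on the log2 scale (SE 0.06, adjusted p = 0.000595). On the TPM scale its ranges overlapped (351 to 418 against 343 to 359.7 TPM). This scale differs between the media, since the median gene had a log2 ratio of 0.40 in mean TPM, against which Map2 had a ratio of -0.16.

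Gap43, a phosphoprotein of the growth cone, fell the most. Its 119, 92.2 and 123 normalized CPM in proliferation medium stood against 41.3 and 40.4 in differentiation medium, a log2 fold change of -1.44 (SE 0.21, adjusted p = 6.38e-05), or 2.72-fold lower. Ncam1, the neural cell adhesion molecule, rose 1.99-fold, from 247, 256 and 238 to 484 and 499 normalized CPM, with a log2 fold change of 0.99 (SE 0.06, adjusted p = 1.41e-08). In both genes the groups were far apart compared with their spread.

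The 3 presynaptic genes did not move together. Snap25, a SNARE protein of vesicle fusion, was at 3.47, 4.64 and 4.07 normalized CPM and rose to 11.02 and 8.38, which is 2.39-fold (log2 fold change 1.26, SE 0.19, adjusted p = 8.86e-05). Syt1, the calcium sensor of release, was at 7.22, 6.07 and 7.29 and then at 6.66 and 5.96 normalized CPM, and its groups overlapped (log2 fold change -0.12, 95% confidence interval -0.58 to 0.33, adjusted p = 0.634). Syn1, a protein that tethers synaptic vesicles, was at 21.7, 30.3 and 24.7 and fell to 18.8 and 20.3 normalized CPM (log2 fold change -0.39, SE 0.13, adjusted p = 0.0209).

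The fall of Syn1 rested on replicate 2 of the control libraries in proliferation medium, at 30.3 normalized CPM. Without it the log2 fold change was -0.25 (adjusted p = 0.0838), and the call was also lost without either control library in differentiation medium (adjusted p = 0.142 and 0.0614) and with library totals in place of TMM (-0.30, adjusted p = 0.0526). In TPM, on which the median gene was shifted by 0.40, Syn1 overlapped between the media (means of 10.9 and 11.2), and Syt1, which had no call in normalized CPM, was without overlap higher in differentiation medium (a log2 ratio of 0.35).

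Rbfox3, the gene of NeuN, was at 1.46, 1.83 and 1.64 normalized CPM in proliferation medium against 2.87 and 2.63 in differentiation medium. It rose 1.67-fold (log2 fold change 0.74, SE 0.22, adjusted p = 0.0114), without overlap. These are 30 to 37 and 63 to 65 counts, and without replicate 1 of the control libraries in differentiation medium the adjusted p was 0.0691. Altogether 9 of the 10 genes had no overlap between these groups, beside 76.3% of all genes tested.

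**Figure D2:**
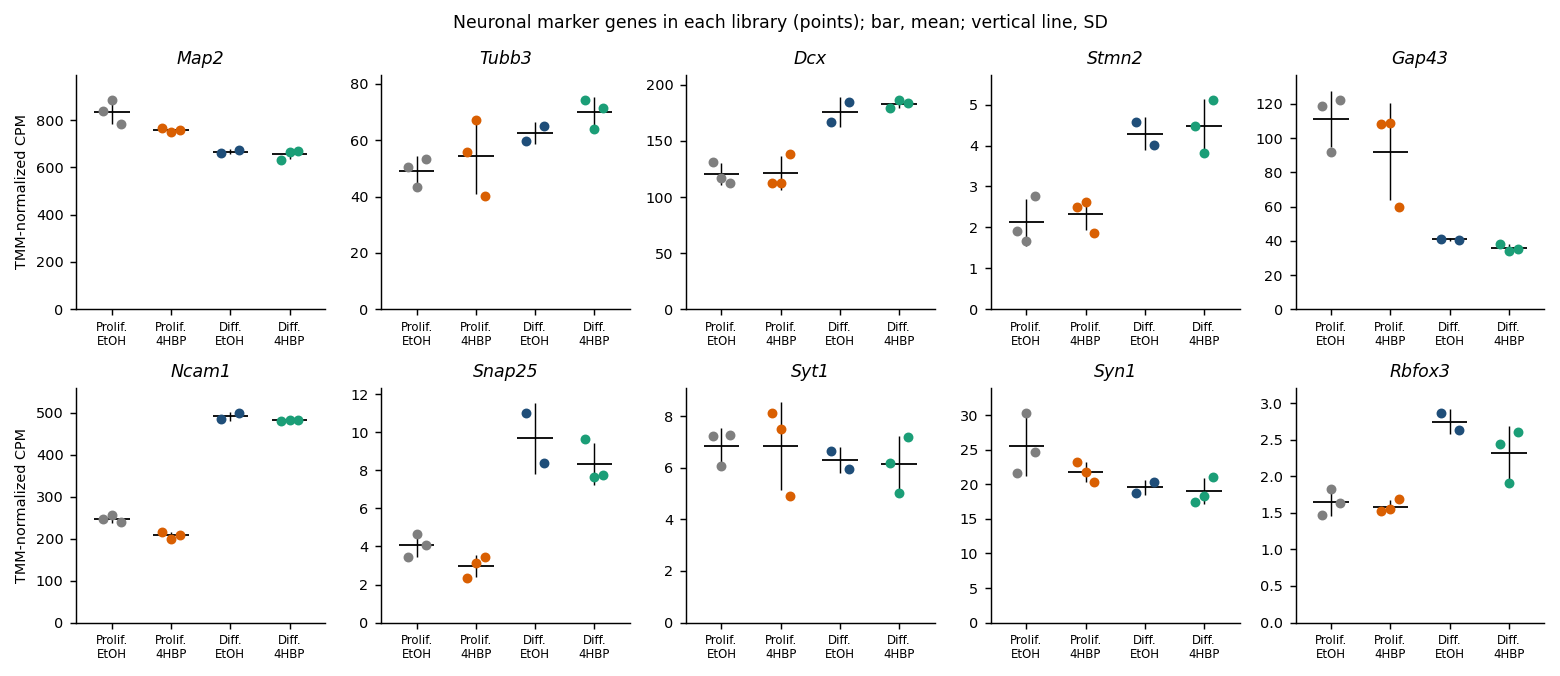
TMM-normalized CPM of each gene in every library, by medium and treatment, with the mean (bar) and SD (vertical line) of each group. Ncam1 lies at 199 to 256 in proliferation against 480.1 to 499 in differentiation medium, whereas Gap43 lies at 59.7 to 123 and 34.3 to 41.3.

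With 4HBP present, the same comparison of media gave 8 of 10 genes called, 6 higher and 2 lower, beside 67.2% of all genes tested (33.3% higher and 33.8% lower). These 6 libraries include none of the control libraries above, but both comparisons take their spread from 1 fit of all 11. Snap25 rose from 2.35, 3.14 and 3.47 to 9.63, 7.65 and 7.78 normalized CPM (log2 fold change 1.48, SE 0.18, adjusted p = 1.07e-05). Ncam1 rose from 215, 199 and 209 to 480.1, 482 and 484 normalized CPM, which is 2.32-fold (log2 fold change 1.21, SE 0.05, adjusted p = 6.53e-10). Neither gene had any overlap between the media.

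Stmn2 (log2 fold change 0.94, SE 0.21), Dcx (0.60, SE 0.08) and Rbfox3 (0.54, SE 0.21) also rose under 4HBP, with adjusted p of 0.00165, 3.70e-05 and 0.0325. The call of Rbfox3 was lost in fits without replicate 1 or 2 of the 4HBP libraries in proliferation medium and without replicate 1 or 3 in differentiation medium, where the adjusted p was between 0.0631 and 0.111. Gap43 fell from 108, 109 and 59.7 to 38.3, 34.3 and 35.0 normalized CPM (log2 fold change -1.36, SE 0.19, adjusted p = 2.57e-05). Map2 fell from 766, 750.3 and 756 to 633, 667 and 667 normalized CPM (log2 fold change -0.21, SE 0.06, adjusted p = 0.00511). In each of these 5 genes the groups did not overlap, and 7 of the 10 did not, beside 71.5% of all genes.

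Tubb3 passed the test under 4HBP, although its groups overlapped. It was at 55.8, 67.3 and 40.3 normalized CPM in proliferation medium against 74.4, 63.9 and 71.6 in differentiation medium (log2 fold change 0.36, SE 0.14, adjusted p = 0.0392). Without the replicate that stood apart, which held the value of 40.3, its log2 fold change was 0.18 (adjusted p = 0.115). The call was also lost without replicate 1 with 4HBP in proliferation medium, replicate 1 or 3 with 4HBP in differentiation medium, control replicate 1 in proliferation medium or either control in differentiation medium, with adjusted p from 0.0514 to 0.117. Syn1 (23.3, 21.9 and 20.3 against 17.5, 18.4 and 21.1 normalized CPM) and Syt1 (8.13, 7.50 and 4.92 against 6.19, 5.03 and 7.21) overlapped and had adjusted p of 0.148 and 0.474. Without that replicate, 7 of the 10 genes were called, all of those above but Tubb3, beside 68.8% of all genes in that fit.

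The second question was whether 4HBP changed these genes within a medium. In proliferation medium no gene of the 10 passed the test (edgeR), beside 7.43% of the 14449 genes tested. Of the 10, 1 (Ncam1) had an unadjusted p under 0.05, beside 25.1% of all genes. DESeq2, limma voom with sample weights and the edgeR fit of all 11 libraries each called 1 of the 10, which was Ncam1. Of all genes they called 1623 of 14449, 2344 of 14449 and 2668 of 15920. With limma on log2(CPM+1) or log2(CPM+0.1) none of the 10 was called, beside 35 and 24 of all 23759 genes. The median log2 fold change was -0.10 over the 10 genes and 0.00 over all genes.

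Ncam1 read 215, 199 and 209 normalized CPM with 4HBP against 247, 256 and 238 in controls, so each 4HBP library was below each control library. The log2 fold change was -0.25 (SE 0.07, adjusted p = 0.0571), and -0.25 with an adjusted p of 0.0504 without replicate 3 with 4HBP. Map2 was likewise lower in each 4HBP library (766, 750.3 and 756 against 839, 886 and 783), with a log2 fold change of -0.14 (SE 0.08, adjusted p = 0.301). Such a separation of the groups was seen in 2 of the 10 genes and in 31.3% of all genes tested. It depended on the scale. In TPM, Ncam1 was still apart and lower (log2 ratio of means -0.22), Map2 overlapped (-0.15), and Rbfox3 was apart and higher with 4HBP (1.04 to 1.16 against 0.940 to 0.960 TPM).

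The value of Gap43 in this medium turned on 1 library. Its controls read 119, 92.2 and 123 normalized CPM and its 4HBP libraries 108, 109 and, in replicate 3, 59.7. The log2 fold change of -0.27 (SE 0.21, adjusted p = 0.471) became -0.03 without that replicate (adjusted p = 0.890). For Tubb3 (55.8, 67.3 and 40.3 against 50.6, 43.5 and 53.5), leaving out the same library moved the log2 fold change from 0.15 (adjusted p = 0.637) to 0.33 (adjusted p = 0.0853). None of the 10 genes was called without it either, whereas the number of all genes called rose from 1074 to 1429.

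Of the 10 genes, Snap25 had the log2 fold change farthest from 0 in this medium, -0.44 (SE 0.22, adjusted p = 0.245), with 2.35, 3.14 and 3.47 normalized CPM against 3.47, 4.64 and 4.07 in controls. The 95% confidence interval ran from -0.93 to 0.05. For Stmn2 (-0.47 to 0.74), Rbfox3 (-0.61 to 0.50) and Syt1 (-0.45 to 0.44) the intervals were as wide. Dcx, counted 2277 to 2956 times in each of these libraries, had a narrower interval of -0.21 to 0.23 around a log2 fold change of 0.01. The interval of Syn1 ran from -0.53 to 0.07. Those of Gap43 (1275 to 2470 counts) and Tubb3 (861 to 1391 counts) ran from -0.74 to 0.20 and from -0.22 to 0.52. Without replicate 3 with 4HBP the log2 fold change of Syt1 moved from -0.00 to 0.19, that of Stmn2 from 0.13 to 0.27, that of Dcx from 0.01 to -0.09 and that of Snap25 to -0.56 (adjusted p = 0.154).

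In differentiation medium, again none of the 10 genes passed the test (edgeR), beside 2.55% of the 15484 genes tested. Of the 10, 2 had an unadjusted p under 0.05, beside 15.9% of all genes. DESeq2, voom and limma on log2(CPM+1) called none of the 10 either. Of all genes they called 277 of 15484, 379 of 15484 and 0 of 25556, so limma called no gene at all. Gap43 read 38.3, 34.3 and 35.0 normalized CPM with 4HBP against 41.3 and 40.4 in controls, without overlap, and its log2 fold change was -0.19 (SE 0.06, adjusted p = 0.108). For Tubb3 the 4HBP libraries read 74.4, 63.9 and 71.6 and the controls 59.7 and 65.3 normalized CPM, with overlap, and its log2 fold change was 0.15 (SE 0.06, adjusted p = 0.211). These were the genes with an unadjusted p under 0.05.

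The cultures in this medium were more alike, so the intervals were narrower. The 95% confidence interval of the log2 fold change ran from -0.10 to 0.04 for Map2, from -0.10 to 0.03 for Ncam1 and from -0.04 to 0.15 for Dcx. It was wider for the low genes, from -0.51 to 0.08 for Snap25, -0.31 to 0.41 for Stmn2, -0.37 to 0.27 for Syt1 and -0.71 to 0.20 for Rbfox3. Without overlap were 3 of the 10 genes (Gap43, Rbfox3 and Ncam1, all lower with 4HBP), beside 32.9% of all genes tested. This too depended on the scale, since in TPM Gap43, Map2 and Snap25 were the genes apart and lower (log2 ratios of means -0.20, -0.08 and -0.25), and Rbfox3 (0.04) and Ncam1 (-0.03) overlapped.

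The difference between the 4HBP effects of the media (proliferation minus differentiation) was tested in the fit of all 11 libraries. It passed for none of the 10 genes, beside 4.49% of all genes (2.01% higher and 2.48% lower). Of the 10, 1 (Ncam1) had an unadjusted p under 0.05, beside 19.9% of all genes. Its difference was -0.22 (SE 0.08, adjusted p = 0.129). DESeq2 and voom each called Ncam1 here, with adjusted p of 0.0367 and 0.0287, beside 1078 and 1651 of all 15920 genes. With limma on log2(CPM+1) none of the 10 was called, beside 293 of all 27110 genes. For the other 9 genes the adjusted p was between 0.474 and 0.981.

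**Figure D3:**
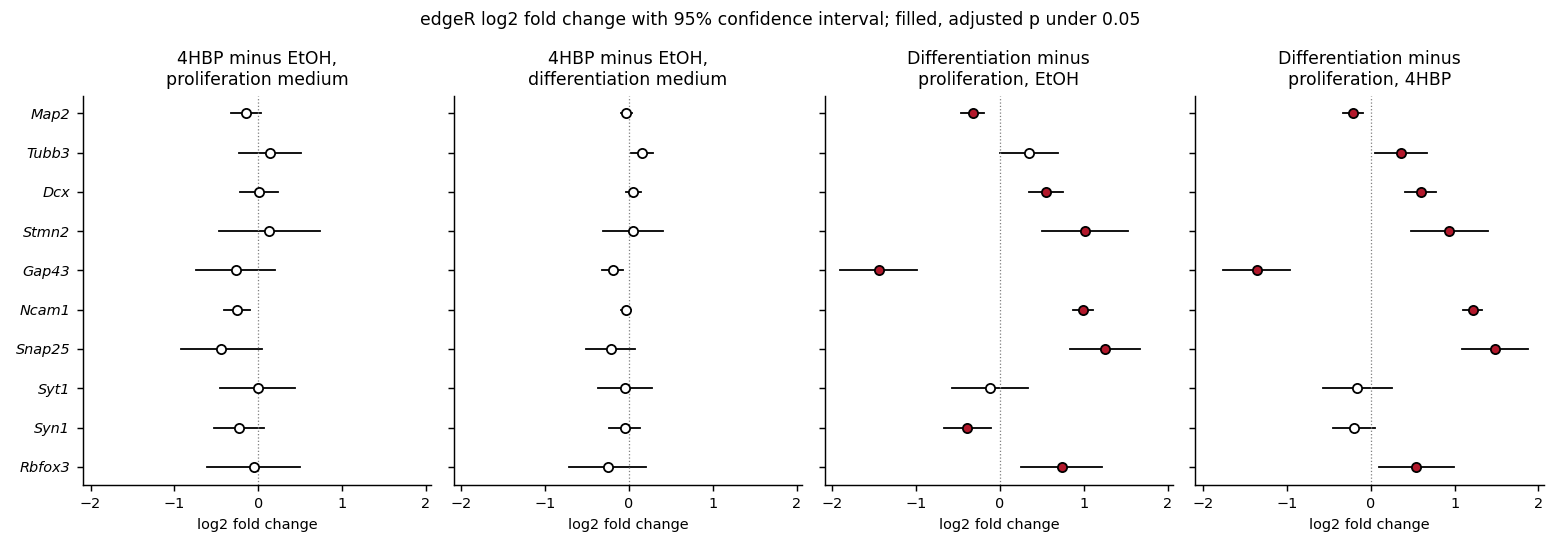
Log2 fold change of each gene (edgeR) with its 95% confidence interval for 4HBP against EtOH in each medium and for differentiation against proliferation medium in each treatment. Filled points have an adjusted p under 0.05: none for 4HBP in either medium, 8 for the medium in control cultures and 8 with 4HBP.

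RSEM also gives a mean transcript length for each gene and library, weighted by the estimated abundance of the gene's annotated transcripts, which differ in length. It was not used to choose the genes and is given as a description. Map2 is known for short transcripts of the immature brain and long ones of mature neurons, and its 24 transcripts here had 304 to 6258 bases. Its mean length was between 2856 and 3212 bases in the 6 proliferation libraries and between 3389 and 3642 in the 5 differentiation libraries. For Dcx it was 6892 to 7408 and then 7687 to 8008 bases, and for Ncam1 3210 to 3320 and then 3357 to 3438 bases. In all 3 genes the media did not overlap, and the lengths were longer in differentiation medium.

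In Gap43 the mean length was shorter in differentiation medium (1414.53 to 1420.0 against 1396 to 1414.18 bases), a difference of means of 13.9 bases. Thus 4 of the 10 genes were apart between media, beside 20.4% of the 12614 tested genes with more than 1 transcript (14.5% longer and 5.83% shorter). The other 6 genes overlapped, and Tubb3 stayed at 1868 bases in all libraries. Ncam1 was longer in the control libraries in differentiation medium (3437.56 and 3421.43 bases) than in those with 4HBP (3356.63 to 3368.89 bases). Gap43 (1409.37 and 1414.18 against 1396.16 to 1404.68) and Rbfox3 (2812.88 and 2851.87 against 1731.26 to 2799.92) were longer in these controls too. The rest of the 10 genes overlapped there. In proliferation medium all 10 genes overlapped between treatments in length. The share of all genes apart between treatments in length was not computed, and an effect of 4HBP on length was not tested. The reads of the single transcripts were not analysed here, so these lengths are estimates of the quantification.

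**Figure D4:**
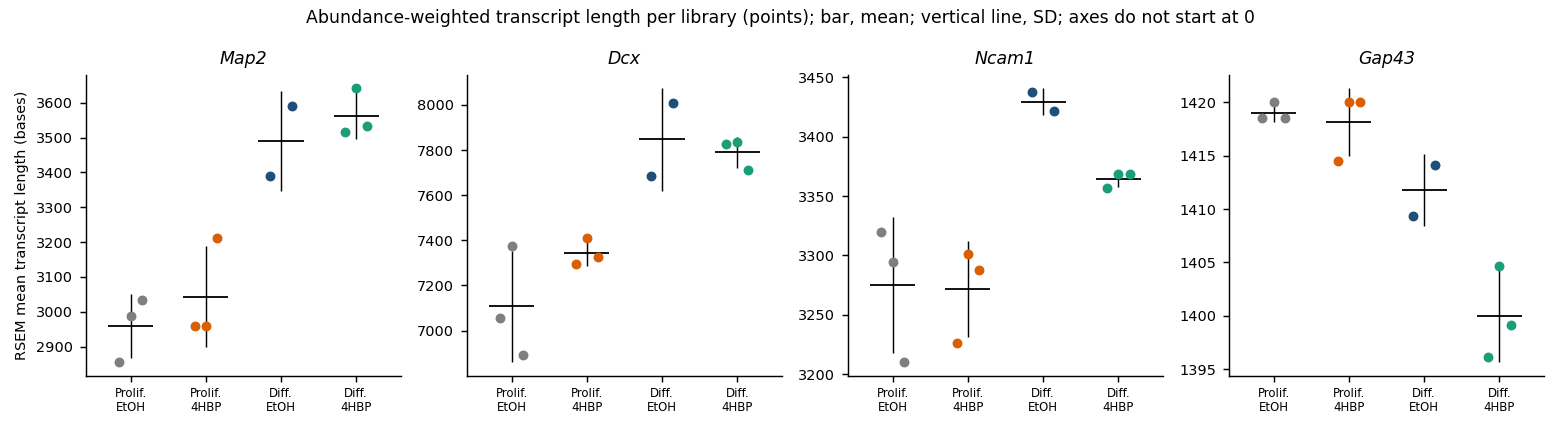
Mean transcript length in bases, as estimated by RSEM, for the 4 genes whose media did not overlap, 1 point per library with the mean and SD of each group. Map2 lies at 2856 to 3212 bases in proliferation and 3389 to 3642 in differentiation medium. The axes do not start at 0.

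The counts of these genes were little affected by shared reads. They were whole numbers (within 1e-06) in all libraries for 9 of the 10 genes, and Snap25 was not whole in 2. Tubb3 (chr8:123411424-123422015, plus strand) lies inside the span of Gm20388, which was counted up to 1214.18 times, but their exons share no base. Syn1 (chrX:20860511-20921004, minus strand) overlaps Timp1 and Araf on the opposite strand, with 9 exonic bases shared, and Ncam1 (chr9:49502136-49798925, minus strand) shares 417 exonic bases with the opposite-strand Gm11149, counted up to 26 times. The libraries kept the strand.

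Upstream sequences were at hand for 6 of the 10 genes (Map2, Tubb3, Syt1, Rbfox3, Syn1 and Dcx, from RefSeq, GRCm38.p6). The 250 bases before a RefSeq start are shown for Dcx, which rose in differentiation medium, for Syn1, which fell in control cultures, and for Tubb3, which is the gene most used to mark neurons. In these 3 genes the GENCODE gene begins further upstream, so the last 92 (Dcx), 86 (Syn1) and 129 bases (Tubb3) of the sequence lie inside it. Capitals mark matches to the motifs searched on both strands, which do not overlap one another in these sequences.
Dcx, chrX:143933220-143933469, minus strand: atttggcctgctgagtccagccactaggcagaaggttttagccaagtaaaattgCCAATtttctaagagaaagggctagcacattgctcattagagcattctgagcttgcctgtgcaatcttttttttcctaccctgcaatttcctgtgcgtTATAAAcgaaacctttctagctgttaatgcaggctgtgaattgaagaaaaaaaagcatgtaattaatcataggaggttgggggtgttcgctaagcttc
Syn1, chrX:20920919-20921168, minus strand: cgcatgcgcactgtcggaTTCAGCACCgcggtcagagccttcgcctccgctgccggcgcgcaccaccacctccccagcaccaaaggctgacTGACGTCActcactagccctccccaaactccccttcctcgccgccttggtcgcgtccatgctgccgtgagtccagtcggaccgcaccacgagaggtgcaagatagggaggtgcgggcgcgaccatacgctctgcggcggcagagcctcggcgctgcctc
Tubb3, chr8:123411303-123411552, plus strand: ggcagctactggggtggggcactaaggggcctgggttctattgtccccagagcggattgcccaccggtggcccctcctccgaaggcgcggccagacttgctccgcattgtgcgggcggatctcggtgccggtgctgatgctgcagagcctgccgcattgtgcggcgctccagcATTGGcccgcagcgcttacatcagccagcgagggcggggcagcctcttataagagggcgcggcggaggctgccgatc

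Syn1 held TTCAGCACC, the left part of the RE1 element that the repressor REST binds in many neuronal genes, at positions -232 to -224 from the RefSeq start, and TGACGTCA, the cAMP response element, at -159 to -152. The first occurs in 0.301% and the second in 1.55% of the 32851 upstream sequences of the same length. Neither was found in the other 5 genes, which says only that these letters are not in those windows. Dcx held TATAAA (in 12.4% of sequences) at -98 to -93 and CCAAT (33.8%) at -196 to -192 in the window shown. From its other RefSeq start, TATAAA lies at -193 to -188 and CCAAT is outside the window. Tubb3 held CCAAT on the minus strand at -77 to -73, inside the GENCODE gene. CAGCTG (13.0%) was found in 1 of the 2 windows of Syt1. A match is a description of letters and not a bound site.

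Rest itself did not pass the test in any comparison, with adjusted p of 0.747 and 0.172 for 4HBP in the proliferation and differentiation media, 0.699 and 0.0691 for the medium in controls and with 4HBP, and 0.338 for the difference of the 4HBP effects. Of the 7 genes of the REST repressor complex, 5 fell in differentiation medium in control cultures (Sin3a by 0.63, Rcor2 by 0.58, Hdac2 by 0.57, Rcor1 by 0.33 and Hdac1 by 0.26 on the log2 scale) and none rose, beside 30.6% lower and 30.8% higher of all genes. Without replicate 3 with 4HBP in proliferation medium 1, Ctdsp1, rose. With 4HBP, 3 of 7 fell (4 without that replicate) and none rose, beside 33.8% and 33.3% of all genes. For 4HBP in proliferation medium, 1 of the 7, Rcor2, fell by 0.63 (edgeR adjusted p = 0.0217), beside 3.69% of all genes. The list had a median log2 fold change of -0.33 in control cultures, beside 0.03 over all genes.

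The 6 other lists held 95 further neuronal genes, of which 92 were tested between the media. In control cultures 42 rose, 22 fell and 28 did not pass the test, beside 30.8% and 30.6% of all genes. Without replicate 3 with 4HBP in proliferation medium 43 rose and 23 fell, beside 33.4% and 32.7% of all genes in that fit. There 6 cytoskeleton genes fell and 5 postsynaptic genes rose, and the other numbers for control cultures were as given below. With 4HBP, 47 rose and 20 fell, beside 33.3% and 33.8% of all genes. Without replicate 3 with 4HBP in proliferation medium 46 rose and 23 fell, beside 34.4% and 34.5% of all genes in that fit. The counts of the single lists below stand beside these shares of the same comparison and fit. The median log2 fold change was 0.22 in control cultures and 0.41 with 4HBP, beside 0.03 and 0.01 over all genes. Without that replicate the numbers that rose and fell with 4HBP became 13 and 5 for the cytoskeleton list and 14 and 8 for the presynaptic list, and those of the other 4 lists were as given below. As among the 10 markers, genes of each list moved in both directions.

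Of 25 other cytoskeleton genes, 12 rose and 5 fell in control cultures. Stmn4, a relative of Stmn2, rose by 1.40 on the log2 scale, and Dclk1 and Dclk2, which encode relatives of doublecortin, fell by 2.00 and 2.29, opposite to Dcx. Nefh, a neurofilament subunit, passed the test (adjusted p = 0.0496) with 8 and 17 counts against 1, 1 and 7. With 4HBP, 14 rose and 4 fell, again led by Stmn4 (1.69) and Nefh among the higher and by Dclk2 (-2.03) and Dclk1 (-1.56) among the lower. The call of Nefh with 4HBP (adjusted p = 0.0446) was lost without replicate 3 with 4HBP in proliferation medium (adjusted p = 0.0872).

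Of 29 presynaptic and vesicle genes tested, 14 rose and 6 fell in control cultures, and the same numbers did with 4HBP. The vesicular GABA transporter Slc32a1 had 3, 1 and 4 counts in the control libraries in proliferation medium against 98 and 77 in differentiation medium. Gad2, which makes GABA, rose by 1.87 on the log2 scale. Amph, a protein of vesicle endocytosis, fell by 1.13. With 4HBP, Slc32a1 went from 3, 3 and 6 to 106, 104 and 112 counts, Syn3, a relative of Syn1, rose by 2.24, and Pclo, a scaffold of the active zone, fell by 0.61. Slc17a6, a vesicular glutamate transporter, had no library with more than 2 counts.

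Among 13 postsynaptic scaffold genes, 4 rose and 5 fell in control cultures, led by Shank3 (1.38) and Shank1 (1.25) and by Camk2b (-1.72) and Dlg4 (-0.63). With 4HBP, 5 rose and 4 fell, with Shank3 (1.46) and Dlgap1 (1.38) at one end and Camk2b (-2.10) and Dlg4 (-0.43) at the other. Among 9 adhesion genes 5 rose and 1, Chl1, fell, by 2.26 in control cultures and 2.75 with 4HBP, opposite to Ncam1. Nfasc (1.33) and L1cam (1.29) were the highest in control cultures, and Nrxn3 (1.91) and Cntn1 (1.63) with 4HBP.

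Of 9 neuronal RNA-binding proteins, the class of Rbfox3, 3 rose and 3 fell in control cultures, with Celf4 (1.19) and Elavl3 (0.77) the highest and Elavl4 (-1.05) and Nova1 (-0.34) the lowest. With 4HBP, 4 rose and 3 fell, with Rbfox1 (1.23), Celf4 (0.84), Elavl4 (-0.87) and Celf5 (-0.75). The dense core granule genes had the widest spread. Chgb and the convertase Pcsk2 rose by 2.03 and 2.46 on the log2 scale in control cultures and by 2.81 and 3.01 with 4HBP, whereas Vgf (-4.18 and -3.70) and Scg2 (-3.20 and -2.51) fell. In that list, 4 of 7 rose and 2 fell in control cultures, and 5 rose and 2 fell with 4HBP.

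**Figure D5:**
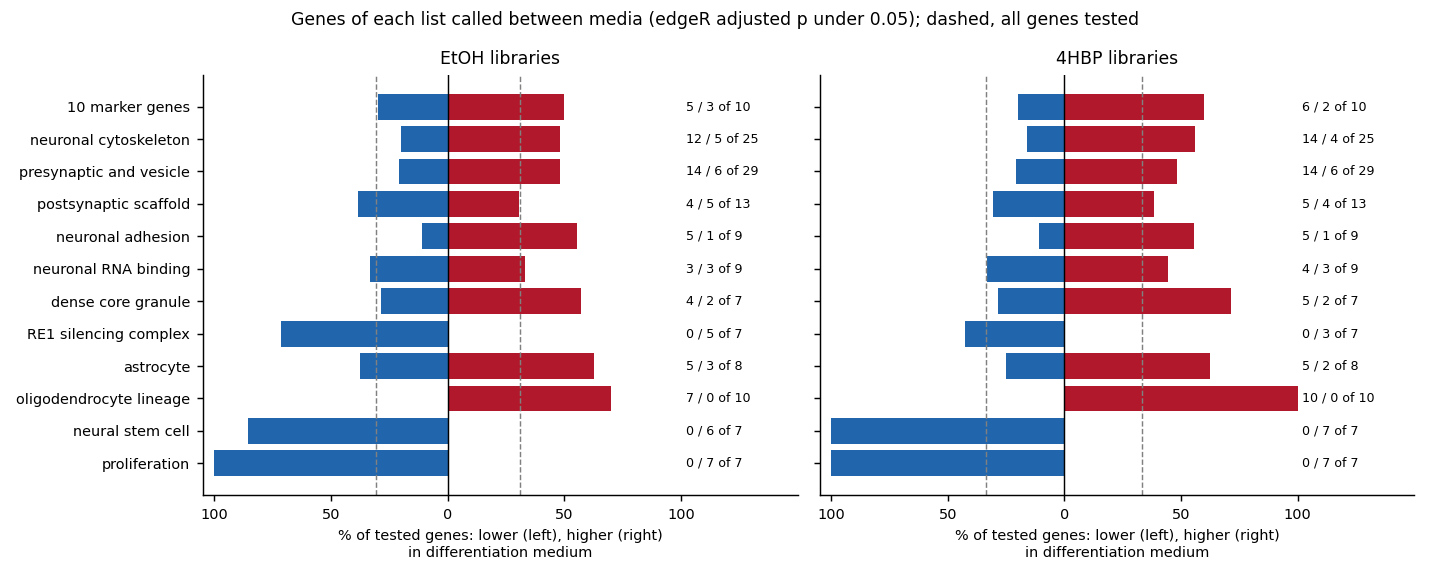
Share of the tested genes of each list called higher (right) or lower (left) in differentiation medium, in EtOH and in 4HBP libraries, with the counts beside each bar (higher, lower, tested) and the shares of all genes as dashed lines. The 10 markers have 5 higher and 3 lower in EtOH, and 6 higher and 2 lower with 4HBP.

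Markers of other cell types moved with the medium as well. The counts for control cultures stand beside 30.8% of all genes higher and 30.6% lower. The summed level of 10 oligodendrocyte lineage markers was 3825 to 4587 normalized CPM in the control libraries in proliferation medium against 9092 to 9477 in differentiation medium, and 7 of 10 rose and none fell. Sox10 rose by 0.45 on the log2 scale, and Olig2 had a log2 fold change of 0.18 (adjusted p = 0.0858). Without replicate 3 with 4HBP in proliferation medium 10 of 10 rose, Olig2 among them. Of 8 astrocyte markers 5 rose and 3 fell, with a summed level of 8042 to 9020 and then 9205 to 9273 normalized CPM. Aqp4 rose by 0.27, whereas Gfap fell by 0.62. The 7 stem cell markers went from 4379 to 5270.3 to 1549 to 1564 normalized CPM (6 of 7 fell, Nes by 2.57 and Sox2 by 0.51), and the 7 proliferation markers from 838 to 993 to 155 to 177 (7 of 7 fell, Mki67 by 3.20). The part of these cell types in the levels of the 10 genes was not tested.

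With 4HBP, 10 of 10 oligodendrocyte lineage and 5 of 8 astrocyte markers rose, 2 astrocyte markers fell, and all 7 stem cell (6 without replicate 3 with 4HBP in proliferation medium) and all 7 proliferation markers fell. These counts stand beside 33.3% of all genes higher and 33.8% lower. Aqp4 (1.00), Sox10 (0.37) and Olig2 (0.22) rose, Nes (-2.89), Mki67 (-2.34) and Sox2 (-0.44) fell, and Gfap had a log2 fold change of 0.06 (adjusted p = 0.600).

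Under 4HBP in proliferation medium, 1 of 89 further neuronal genes tested rose and 5 fell, beside 3.74% and 3.69% of all genes. Chl1 rose by 0.47 on the log2 scale (adjusted p = 0.0183). Syn2, a relative of Syn1, fell by 0.69 (adjusted p = 0.0344), the microtubule protein gene Map1a by 0.61 (adjusted p = 0.0227), Amph by 0.57 (adjusted p = 0.0122), Nlgn1 by 0.40 (adjusted p = 0.0203) and Dclk1 by 0.35 (adjusted p = 0.0270), all from edgeR. The median log2 fold change of the 89 genes was -0.14, beside 0.00 over all genes. Of the 89, 32 had an unadjusted p under 0.05 (edgeR), beside 25.1% of all genes. The groups of 37 did not overlap, beside 31.3% of all genes. Without replicate 3 with 4HBP, a fit added after seeing the data, 4 of the 89 rose and 9 fell, beside 4.89% and 4.87% of all genes in that fit, these 6 genes among them with the same directions. With replicate 3 kept, 4 of 8 astrocyte markers fell (6 of 8 without it), among them Gfap by 0.68 and Aqp4 by 0.66, and the summed level of that list was 6340 to 6900.4 normalized CPM with 4HBP and 8042 to 9020 in controls, which was not tested as a part of these changes. Mki67 (-0.53), Sox2 (-0.05), Nes (0.31), Olig2 (-0.02) and Sox10 (0.10) did not pass the test there.

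In differentiation medium, 2 of 91 further neuronal genes fell with 4HBP and none rose (edgeR), beside 1.29% and 1.26% of all genes. Camk2b fell by 0.26 (adjusted p = 0.0361) and Nfasc by 0.14 (adjusted p = 0.00768), and 16 of the 91 had an unadjusted p under 0.05, beside 15.9% of all genes. The difference of the 4HBP effects passed for 6 of 92, beside 4.49% of all genes, of which Chl1 was higher (0.49) and Syn2 (-0.86), Chgb (-0.78), Amph (-0.63), Map1a (-0.59) and Dclk1 (-0.44) lower in proliferation than in differentiation medium. Without replicate 3 with 4HBP, 13 of 92 passed, 3 higher and 10 lower, beside 3.11% and 3.79% of all genes in that fit, and included these 6. For Gfap and Aqp4 this difference was -0.68 and -0.74 (adjusted p = 0.0192 and 0.0138).

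The 10 genes did not share 1 profile over the 11 libraries. The Pearson r of each gene with the mean of the other 9, on standardised log2 values, was between 0.32 and 0.66 for Stmn2, Rbfox3, Ncam1, Snap25, Tubb3 and Dcx, 0.01 for Syt1, and -0.46, -0.68 and -0.71 for Syn1, Gap43 and Map2. The media are part of this spread for all genes, and the values carry no test. The genes outside the list most like the mean profile were Otulin (r = 0.95), Hist1h1d (0.94), Ebp (0.94), Cspg4 (0.93) and Cndp2 (0.92), and after the mean of each group was subtracted Dtwd2 (0.96), Tmem51 (0.95), Myo5b (0.95), Ppp1r16a (0.95) and Khsrp (0.93). They were picked as the highest of all genes over 11 libraries, and Hist1h1d had a median of only 0.338 normalized CPM.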

How the data were processed

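Poly(A) RNA of 11 NSC cultures was sequenced with a strand-specific kit. The authors trimmed reads with cutadapt, checked them with FastQC 0.11.5, and aligned and quantified them with Bowtie2 2.2.9 and RSEM 1.3.0 on mm10 with the GENCODE vM17 annotation, and deposited, per gene and library, expected counts (RSEM's estimated counts, which share out multi-mapped reads and need not be whole), TPM, FPKM (not used here) and mean transcript lengths. Here symbols and positions came from GENCODE vM21 of the same build (99.7% of identifiers matched) and upstream sequences from RefSeq. Expected counts were rounded, filtered with filterByExpr, TMM-normalized and tested with edgeR 4.0.16 (R 4.3.3, quasi-likelihood test, Benjamini-Hochberg adjustment over all genes tested, threshold 0.05), within a medium for 4HBP and over 11 libraries for media and the difference of 4HBP effects. All adjusted p and 95% confidence intervals are from these fits unless another tool is named. Each 4HBP comparison shares libraries with both comparisons of media, and the difference of 4HBP effects uses all 11. Alternatives were other normalizations, no filter, DESeq2 1.42.0, limma 3.58.1 with and without voom, other sets of libraries and a replicate block. The edgeR fits were tested on simulated counts. Python 3.11.15 and pandas 2.3.3 were also used. The genes and lists were chosen with earlier results of these data known. All 10 markers, the cell type genes given, the 2 highest and 2 lowest called genes of each neuronal list and the 5 nearest profiles are named, except for 1 presynaptic gene that is not reported here, and other genes were chosen after their values were seen. Beta tubulin proteins were not compared.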

Additional observations from a re-analysis of the deposited data

How the results depend on the processing

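Over all alternatives, 796 log2 fold changes of single genes kept their direction and their side of the threshold, 11 gained and 28 lost a call, and 45 changed sign. For 4HBP in proliferation medium, 1 of the 10 genes (Ncam1) instead of none was called with DESeq2 (adjusted p = 0.0178), with voom weights (0.0187) and with all 11 libraries in one fit (0.00573), and for the difference of the 4HBP effects 1 (Ncam1) was called with DESeq2 and with voom. With the unadjusted p and fold threshold of the paper on log2(CPM+1), an alternative chosen after seeing the data, 5 genes were called between media in control cultures and 5 with 4HBP. Leaving out 1 library, where each group kept more than 1, gave 7 to 9 genes between media in control cultures. These stand beside 9186 of 15875 to 10477 of 15858 genes. With 4HBP it gave 6 to 8, beside 9830 of 15792 to 10915 of 15858 genes. For each 4HBP effect and their difference it gave 0. Every sign change was in a gene without a call. For 4HBP in proliferation medium, Syt1 was 0.024 with library totals, 0.000956 with no filter, 0.00465 and 0.00263 with limma on log2(CPM+1) and log2(CPM+0.1) and 0.11 with voom, and Dcx -0.10 with voom. For the difference, Tubb3 was 0.024 with library totals, 0.00429 and 0.00473 with limma and 0.11 with voom, and Gap43 0.067 with voom. Over single libraries left out, 4HBP values in proliferation medium ran from -0.032 to 0.33 (Tubb3), -0.093 to 0.075 (Dcx), -0.13 to 0.033 (Rbfox3), -0.0067 to 0.38 (Stmn2) and -0.15 to 0.19 (Syt1). In differentiation medium they ran from -0.017 to 0.13 (Dcx), -0.055 to 0.15 (Stmn2), -0.17 to 0.076 (Syt1) and -0.13 to 0.00340 (Syn1). The difference ran from -0.20 to 0.17 (Tubb3), -0.15 to 0.018 (Dcx), -0.065 to 0.32 (Stmn2), -0.11 to 0.24 (Syt1) and -0.22 to 0.16 (Gap43). The causes were not tested.

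Calls between media that depended on a setting were those of Tubb3 in control cultures (gained with library totals, no filter, voom and only the groups compared) and Syn1 there (lost with library totals and limma), and with 4HBP those of Tubb3 (lost with limma, voom and only the groups compared), Rbfox3 (lost with no filter, DESeq2 and only the groups compared) and Map2 (lost with limma on log2(CPM+0.1)). Of all genes, 1074 were called for 4HBP in proliferation medium, against 1623 with DESeq2, 2344 with voom, 2668 in one fit of all libraries, 35 and 24 with limma on log2(CPM+1) and log2(CPM+0.1), 653 with the paper's threshold, and 107 to 1429 without 1 library (107 and 137 without control replicates 1 and 2, 705 and 290 without 4HBP replicates 1 and 2). In differentiation medium 395 were called, against 778 with no filter, 0 with limma (2636 at an unadjusted p under 0.05), 70 with the paper's threshold, 0 in one fit of all libraries (644 unadjusted) and 77 to 288 without 1 library. The difference gave 715, against 1616 with no filter, 1078 with DESeq2, 1651 with voom, 293 and 159 with limma and 124 to 1100 without 1 library. Between media, the paper's threshold gave 5217 genes in control cultures in place of 9771, and 5698 with 4HBP in place of 10692.

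Whether replicate numbers shared between treatments pair the libraries stayed undecided. Deviations from the group means of same-numbered libraries had r of -0.02, -0.07 and -0.10 in proliferation and 0.06 and -0.00421 in differentiation medium. In proliferation medium, libraries with different numbers had r from -0.05 to 0.09, and so few libraries per group cannot settle the question. In differentiation medium the deviations of the control libraries mirror each other, so r only changes sign between them and cannot test pairing. With the replicate block, 0 genes were called for 4HBP in either medium and for the difference, 8 between media in control cultures and 6 with 4HBP (without Tubb3 and Rbfox3), Stmn2 became -0.056 for 4HBP in differentiation medium, and 534 and 745 of all genes were called for 4HBP in place of 1074 and 395. At 30 to 250 counts per library, Rbfox3, Stmn2 and Snap25 had SEs of 0.14 to 0.27 for 4HBP, against 0.03 to 0.10 for Dcx, Map2 and Ncam1. In proliferation medium the SEs of Gap43 (1275 to 2470 counts) and Tubb3 (861 to 1391 counts) were 0.21 and 0.16, within the range of the low genes. In differentiation medium both were 0.06.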
